A study of Rattus norvegicus with 8 samples.

Results

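Immediate early genes are the genes that a cell transcribes within minutes of a stimulus without first making new protein, and their messenger RNAs are usually short-lived. Growth factors, calcium, stretch and stress reach them through MAP kinases, serum response factor with its ETS partners, and CREB. In skeletal muscle they are known to respond to contraction, stretch and injury, and in animals generally to the events around handling and tissue collection. The 10 genes described here are Fos, Jun, Junb, Egr1, Atf3, Myc, Nr4a1, Zfp36, Ier2 and Btg2. They were found by exact gene symbol among the 17055 rows of the deposited count table, and all 10 were present and passed the filter on low counts, among 10522 genes tested.

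The RNA came from the diaphragm, the main muscle of inspiration, of 8 Sprague-Dawley rats, an outbred strain, 16 weeks after surgery. In 4 animals (MI replicates 1 to 4) the left anterior descending coronary artery had been tied off to cause a myocardial infarction, and in 4 animals (Sham replicates 5 to 8) everything was done except the tie, so both groups had anaesthesia, mechanical ventilation and an opened chest. Each animal gave 1 library. The size of the infarct, the time of day, the way the animals were killed and the delay before freezing are not given in the labels. MI libraries held 15001575, 15944048, 12405307 and 8566143 counts and Sham libraries 13741348, 16284264, 24967251 and 7941402. Levels below are counts per 1000000 counts of a library (CPM) after TMM scaling, which are not divided by gene length, so they are compared between libraries and not between genes. Genes of skeletal muscle were abundant in every library, with 7 markers together at 101616 to 139392 CPM in MI and 113648 to 138124 CPM in Sham. Intervals given with a CPM are 95% exact Poisson intervals and cover counting error only.

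High levels of these genes were carried mainly by Sham replicates 6 and 7, and the genes that stood highest differed between those libraries. Fos, Atf3, Myc, Nr4a1 and Btg2 had their highest level in Sham replicate 6, and Jun, Junb, Egr1, Zfp36 and Ier2 in Sham replicate 7. Each of these libraries was thus highest for 5 of 10 members, where Sham replicate 6 was highest for 11.7% of all genes tested and Sham replicate 7 for 14.5%. No member was highest in MI replicates 1 to 4, which were highest for 16.9%, 10.4%, 8.01% and 16.5% of all genes, or in Sham replicates 5 and 8, which were highest for 7.86% and 14.1%. Sham replicates 6 and 7 held both of the top places for 3 of 10 members (Myc, Nr4a1 and Zfp36) and for 4.81% of all genes. Several of the highest places were not resolved from counting error. For Jun, Junb and Egr1 the interval in Sham replicate 7 overlapped that of MI replicate 2, 4 and 3 in turn. For Ier2 it overlapped that of Sham replicate 8, and for Myc the intervals of Sham replicates 6 and 7 overlapped. In RNA from whole tissue, more cells of a type and more RNA per cell cannot be told apart. Summed over the 10 members, the level was 208 to 272 CPM in the 4 MI libraries, 736 CPM in Sham replicate 6, 346 CPM in Sham replicate 7, 232 CPM in Sham replicate 5 and 266 CPM in Sham replicate 8. Atf3 accounted for 36.2% of the sum in Sham replicate 6. Without Atf3 the sums were 196 to 259 CPM in MI, against 469 CPM in Sham replicate 6, 335 CPM in Sham replicate 7, 221 CPM in Sham replicate 5 and 249 CPM in Sham replicate 8.

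**Figure D1:**
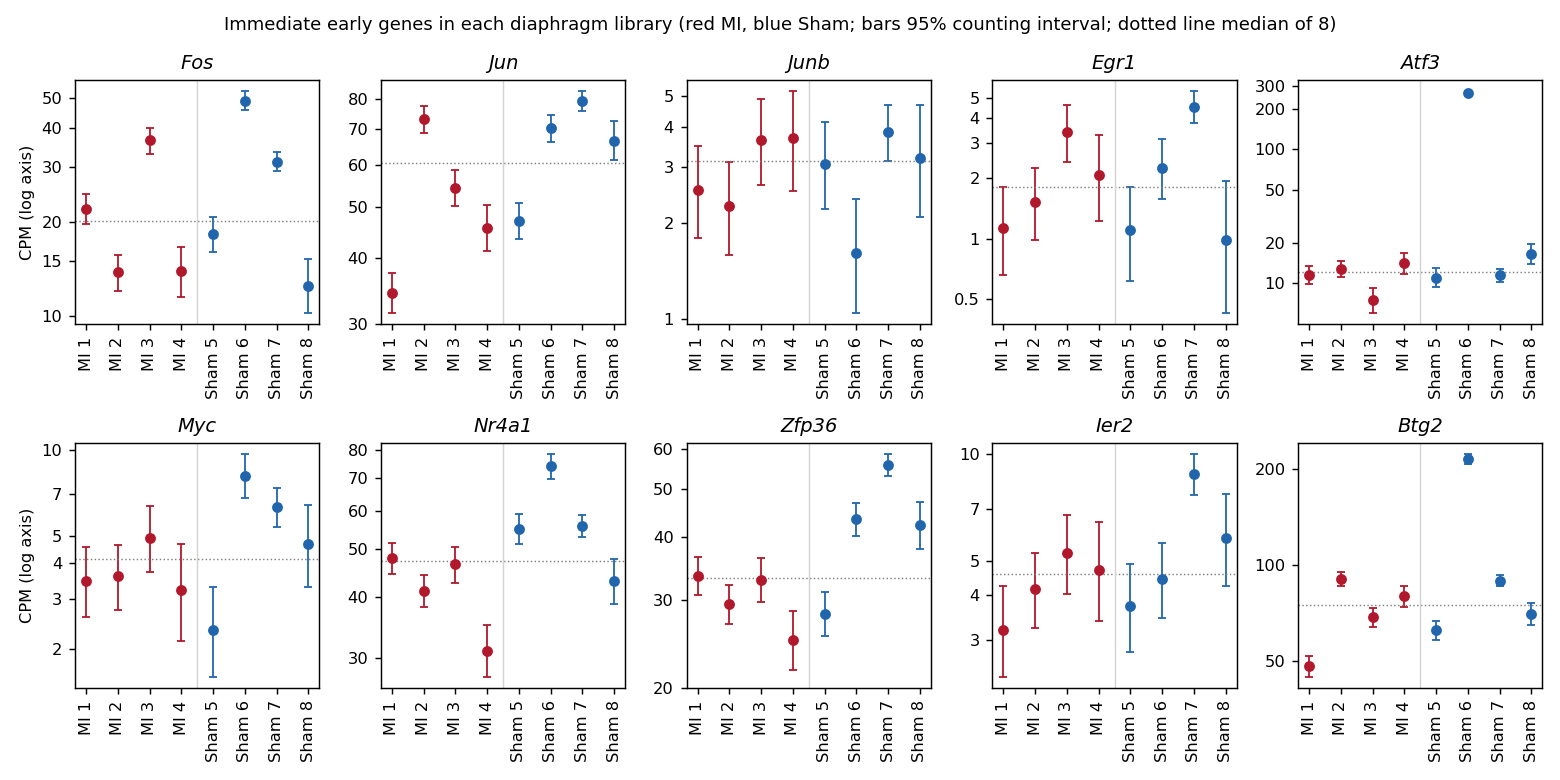
Level of each of the 10 genes in each library (CPM, log axis), MI in red and Sham in blue, with 95% counting intervals and the median of the 8 libraries as a dotted line. Atf3 stands at 267 CPM in Sham replicate 6 and at 7.37 to 16.4 CPM elsewhere, while Egr1 and Ier2 are highest in Sham replicate 7.

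The AP-1 subunits come first. AP-1 is a family of leucine zipper factors in which FOS proteins pair with JUN proteins. Fos was at 22.1, 13.8, 36.5 and 13.9 CPM in MI replicates 1 to 4, against 18.3, 49.0, 31.2 and 12.5 CPM in Sham replicates 5 to 8. Sham replicate 6, MI replicate 3 and Sham replicate 7 were high in that order, and the groups overlapped over most of their range. Jun, its main dimer partner, was at 34.3, 73.1, 54.3 and 45.6 CPM in MI, against 47.1, 70.4, 79.3 and 66.7 CPM in Sham. The order of the libraries differed from that for Fos, since MI replicate 2 was second highest for Jun and among the lowest for Fos. Junb, a JUN protein known as a weaker activator, was at 2.54, 2.26, 3.64 and 3.69 CPM in MI, against 3.08, 1.61, 3.86 and 3.20 CPM in Sham. Its lowest library was Sham replicate 6, the library highest for Fos, with an interval of 1.04 to 2.37 CPM that lay below the interval of 3.14 to 4.69 CPM in Sham replicate 7. These Junb values rested on 25 to 100 counts per library, and most of their intervals overlapped.

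Atf3, a stress-induced leucine zipper factor that can pair with JUN proteins and often represses its targets, set 1 library apart more than any other member did. It was at 11.4, 12.8, 7.37 and 14.1 CPM in MI, against 10.9, 267, 11.3 and 16.4 CPM in Sham. The value in Sham replicate 6 rested on 4145 counts, with an interval of 259 to 275 CPM, and was 22.0 times the median of the 8 libraries. No other of the 10522 tested genes stood further above its median in that library on the log2 scale. Apart from Sham replicate 6 the groups were close, at 11.4 ± 2.90 CPM in MI (SD, n = 4) and 12.9 ± 3.03 CPM in Sham (SD, n = 3).

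Egr1, Nr4a1 and Myc encode other transcription factors. Egr1, a zinc finger factor and a classic target of serum response factor, was at 1.14, 1.53, 3.39 and 2.07 CPM in MI, against 1.10, 2.25, 4.55 and 0.984 CPM in Sham. Sham replicate 7 and MI replicate 3 were highest, and their intervals, 3.77 to 5.45 and 2.42 to 4.61 CPM, overlapped. Egr1 counts ran from 8 to 118, so its order among the lower libraries was not resolved at this depth. Nr4a1, an orphan nuclear receptor that in muscle responds to adrenergic signals, was at 48.0, 41.1, 46.6 and 31.0 CPM in MI, against 55.1, 74.0, 55.7 and 43.1 CPM in Sham. For Nr4a1, 3 Sham libraries lay above all MI libraries, and Sham replicate 8 lay among them. Myc, a factor that promotes growth and ribosome production, was at 3.47, 3.61, 4.91 and 3.23 CPM in MI, against 2.34, 8.11, 6.29 and 4.67 CPM in Sham. Sham replicates 6 and 7 had its highest levels and Sham replicate 5 its lowest.

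Zfp36, Btg2 and Ier2 complete the set. Zfp36, also called tristetraprolin, binds AU-rich messages and speeds their decay, among them messages of inflammatory cytokines. It was at 33.5, 29.4, 32.8 and 24.9 CPM in MI, against 28.1, 43.5, 55.8 and 42.3 CPM in Sham, so that Sham replicates 6, 7 and 8 lay above all MI libraries and Sham replicate 5 lay among them. Btg2, which restrains proliferation and recruits the CCR4-NOT deadenylase, was at 48.0, 90.2, 68.4 and 79.9 CPM in MI, against 62.3, 216, 89.3 and 70.2 CPM in Sham. Sham replicate 6 stood alone, and the other 3 Sham values fell within the MI range. Ier2, a small early-response nuclear protein, was at 3.21, 4.16, 5.25 and 4.73 CPM in MI, against 3.73, 4.44, 8.76 and 5.78 CPM in Sham. Sham replicate 7 was high, with an interval of 7.65 to 9.97 CPM, while Sham replicate 6, which was highest for Fos, Atf3, Myc, Nr4a1 and Btg2, was near the middle for Ier2.

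A member was counted as high in a library where its log2 CPM (prior count 2) was at least 1, or 2-fold, above the median of the 8 libraries. Sham replicate 6 had 3 of 10 members high (Atf3, Btg2 and Fos), where 0.466% of all genes tested were high in that library. Sham replicate 7 had 1 of 10 high (Egr1), where the share of all genes was 1.44%. No member was high in MI replicates 1 to 4, where 0.314%, 0.323%, 0.418% and 1.36% of all genes were, or in Sham replicates 5 and 8, where 0.133% and 0.846% were. No member was 2-fold below its median in any library, where the shares of all genes were 1.45%, 1.81%, 0.77% and 1.19% in MI replicates 1 to 4 and 0.675%, 0.836%, 0.504% and 0.998% in Sham replicates 5 to 8. Just inside the limit stood Fos in Sham replicate 6 at 1.28 and Egr1 in Sham replicate 7 at 1.29. Just outside stood Myc in Sham replicate 6 at 0.96, Ier2 in Sham replicate 7 at 0.91, and Egr1 and Fos in MI replicate 3 at 0.88 and 0.85. In Sham replicate 7, 9 of 10 members were above the median of the libraries, where 51.7% of all genes were, the exception being Atf3 at -0.090. Sham replicate 6 had 8 of 10 above it, where 49.7% of all genes were, the exceptions being Ier2 at -0.044 and Junb at -0.91. The median deviation over the members was 0.52 in Sham replicate 6 and 0.50 in Sham replicate 7, and between -0.26 and 0.089 in the other libraries, while the median of all genes lay between -0.0069 and 0.0057 in every library.

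**Figure D2:**
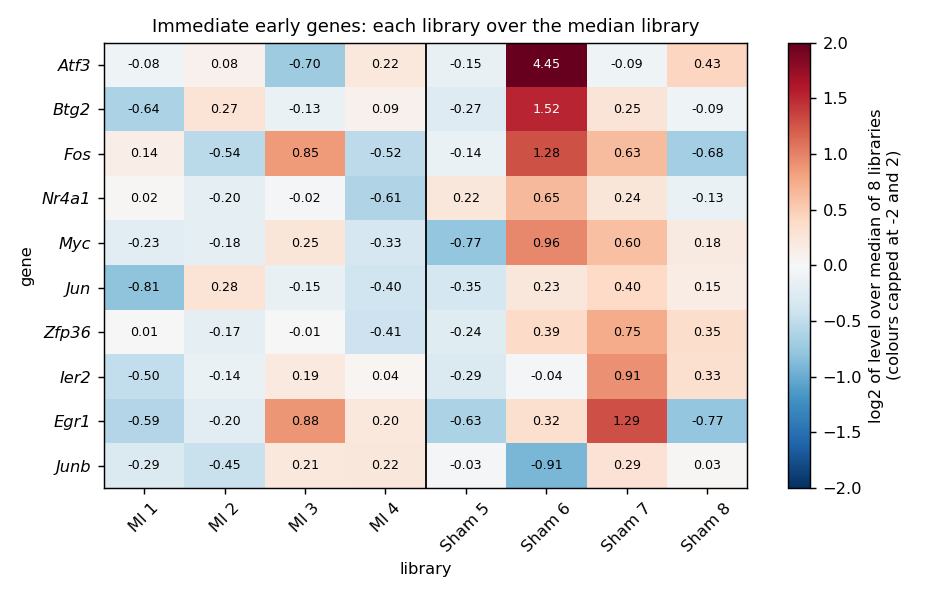
Deviation of each gene from its median over the 8 libraries (log2 CPM, prior count 2), with libraries in columns and genes ordered from those standing higher in Sham replicate 6 at the top to those standing higher in Sham replicate 7 at the bottom. Atf3, Btg2 and Fos are at 4.45, 1.52 and 1.28 in Sham replicate 6, Egr1 is at 1.29 in Sham replicate 7, and Junb is at -0.91 in Sham replicate 6.

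The spread between animals of 1 group was wide for most members. The within-group SD of log2 CPM, pooled over MI and Sham, had a median of 0.50 over the 10 members and 0.20 over all genes tested. Of the members, 3 (Atf3, Egr1 and Fos) were among the 5.01% of tested genes with the largest SD, at 1.59, 0.81 and 0.77, and Btg2 at 0.636 was just under the limit of 0.637. Nr4a1 and Zfp36 had the smallest SDs of the set, 0.30 and 0.32, at the 71.4 and 73.8 percentiles of all genes. Without Sham replicate 6 the number among the largest 5% was 1, and without Sham replicates 6 and 7 together, an alternative chosen after seeing the data, it was 0.

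Promoters of 4 of the 6 members with a window are shown, those that hold a CArG box or a full cyclic AMP response element. Fos, Jun, Atf3 and Myc had no window. The windows run from 250 bases before to 50 bases after the annotated start, 5′ to 3′ on the gene's strand, from RefSeq on GRCr8, a later assembly than the rn5 of the counts. Capitals mark matches on either strand to the CArG box that serum response factor binds, to the cyclic AMP response element TGACGTCA that CREB binds or its core TGACG, to the AP-1 sequence TGANTCA, to the EGR sequence GCGNGGGCG, and to the TATA sequences TATAAA or TATTTAA. Egr1 (chr18:26736828-26737127, plus strand), Zfp36 (chr1:92799059-92799358, minus strand) and Ier2 (chr19:40399123-40399422, plus strand) were highest in Sham replicate 7, and Btg2 (chr13:48087641-48087940, minus strand) in Sham replicate 6.
Egr1: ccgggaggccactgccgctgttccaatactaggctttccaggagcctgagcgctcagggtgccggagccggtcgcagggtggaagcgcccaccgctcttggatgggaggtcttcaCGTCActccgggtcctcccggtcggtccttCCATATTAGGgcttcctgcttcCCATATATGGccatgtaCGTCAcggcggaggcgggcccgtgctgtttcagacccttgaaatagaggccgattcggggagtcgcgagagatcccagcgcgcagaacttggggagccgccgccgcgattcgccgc
Zfp36: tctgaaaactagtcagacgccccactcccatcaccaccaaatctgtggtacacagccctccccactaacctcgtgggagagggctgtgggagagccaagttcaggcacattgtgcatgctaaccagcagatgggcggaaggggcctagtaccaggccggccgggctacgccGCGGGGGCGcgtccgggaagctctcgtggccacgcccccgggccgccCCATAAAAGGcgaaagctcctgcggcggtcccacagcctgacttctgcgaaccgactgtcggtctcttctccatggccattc
Ier2: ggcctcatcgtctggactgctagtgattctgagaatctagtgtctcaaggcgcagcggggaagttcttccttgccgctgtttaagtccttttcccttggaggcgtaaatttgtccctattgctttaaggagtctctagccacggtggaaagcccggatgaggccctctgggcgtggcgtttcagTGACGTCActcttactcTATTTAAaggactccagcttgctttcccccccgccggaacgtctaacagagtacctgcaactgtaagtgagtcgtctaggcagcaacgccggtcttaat
Btg2: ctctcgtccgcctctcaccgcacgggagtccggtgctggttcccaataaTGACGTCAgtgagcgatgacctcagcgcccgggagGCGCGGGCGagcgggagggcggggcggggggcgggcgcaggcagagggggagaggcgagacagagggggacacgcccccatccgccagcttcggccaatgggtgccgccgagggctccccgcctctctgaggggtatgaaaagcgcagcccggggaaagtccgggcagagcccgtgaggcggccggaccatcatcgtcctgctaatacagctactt
The Egr1 window held 2 CArG boxes, beginning at -105 and -83 from the start site, and the Zfp36 window held 1 at -32. CArG boxes were found in 1.64% of 33469 windows of the same length. The full cyclic AMP response element was present at -66 in Ier2 and at -201 in Btg2, and in 1.83% of all windows, and it contains the core on both strands. The core was present in 21.2% of all windows, those with the full element included, and was found without the full element at -135 and -66 in Egr1. An EGR sequence was present at -79 in Zfp36 and at -166 in Btg2, against 4.98% of all windows, and the AP-1 sequence was in none of the 6 windows and in 7.33% of all windows. TATTTAA was present at -49 in Ier2, and either TATA sequence in 17.6% of all windows. Whether any of these sequences had a part in the levels of the members was not tested. Of the members with a window that are not shown, Nr4a1, highest in Sham replicate 6, held the core at -246, -226, -82 and -53 and an EGR sequence at -73. Junb, highest in Sham replicate 7, held the core at -155 and TATAAA at -49. These are matches of letters and not measured binding.

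The comparison of MI with Sham asks whether the level of these genes in the diaphragm differed after infarction. No member passed the edgeR quasi-likelihood test at an adjusted p under 0.05, and neither did any other gene (0% of genes tested). Limma-voom called 0 of the 10 members as well. DESeq2 called 14 of all genes (0.133%) and none of the members, but it gave no adjusted p for Atf3 or Egr1 and so could not call them. The smallest edgeR adjusted p among the members was 0.601, for Nr4a1 and Zfp36. Nr4a1 averaged 41.7 ± 7.69 CPM in MI and 57.0 ± 12.8 CPM in Sham (SD, n = 4 each), and its log2 difference in edgeR was -0.45 ± 0.18 (SE). Zfp36 averaged 30.2 ± 3.93 CPM in MI and 42.4 ± 11.3 CPM in Sham (SD, n = 4 each), and its log2 difference in edgeR was -0.49 ± 0.19 (SE). Their unadjusted edgeR p values were 0.0278 and 0.0246, so that 2 of 10 members were lower in MI at an unadjusted p under 0.05, where 4.47% of all genes were and 8.14% passed in either direction. With single libraries left out this count of members was 0 without MI replicate 4, 1 without MI replicate 2 or Sham replicate 6, 3 without Sham replicate 8, 4 without Sham replicate 5, and 2 otherwise. The members counted were not always Nr4a1 and Zfp36. Without MI replicate 2 it was Jun, and without Sham replicate 7 they were Nr4a1 and Atf3. Nr4a1 was at -0.29 without Sham replicate 6 and Zfp36 at -0.34 without Sham replicate 7, neither then under an unadjusted p of 0.05. Without both of these libraries they were at -0.24 and -0.21. The exact two-sided permutation test of the log2 level over the 70 arrangements of the animals, whose smallest p is 0.0286, gave 0.0857 for Nr4a1 and 0.114 for Zfp36. The MI and Sham values overlapped for each of the 10 members, where 2.46% of all genes had MI entirely below Sham and 2.09% entirely above.

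Of the 10 members, 9 had a log2 fold change below 0, where 51.3% of all genes did, and the median of the members was -0.43 against -0.0070 over all genes. Because the members share the same libraries these are not 9 separate observations. Atf3 had the lowest value, -2.75 ± 1.25 (SE, edgeR adjusted p = 0.623), which was -0.16 ± 0.23 without Sham replicate 6. For Atf3 DESeq2 gave -2.74 and no p value, and for Egr1 -0.17 and no adjusted p. Btg2 was at -0.61 ± 0.43 with all libraries and at -0.042 without Sham replicate 6, and Fos at -0.38 ± 0.48 and, without that library, 0.046. Egr1 was at -0.24 ± 0.51 and, without Sham replicate 7, 0.41, and Ier2 at -0.42 ± 0.27 and -0.10. Myc was at -0.51 ± 0.33, Jun at -0.34 ± 0.24 and Junb at 0.021 ± 0.29. Myc was at -0.23 without Sham replicate 6 and -0.76 without Sham replicate 5, Jun at -0.19 without MI replicate 1 and -0.56 without MI replicate 2, and Junb ranged from -0.18 to 0.21 with single libraries left out. Without MI replicate 2 for Jun, and without Sham replicate 5 for Myc, the unadjusted edgeR p was under 0.05. The same held for Atf3 without Sham replicate 5, 7 or 8. Without Sham replicates 6 and 7 together, 6 of 10 members were below 0, where 48.8% of all genes were, and the members' median was -0.094. In that fit 0 members had an unadjusted edgeR p under 0.05. These libraries were chosen after seeing the data, and every member had its highest level in either of them. Both are Sham, so for most members a rise of the difference was built into the choice.

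**Figure D3:**
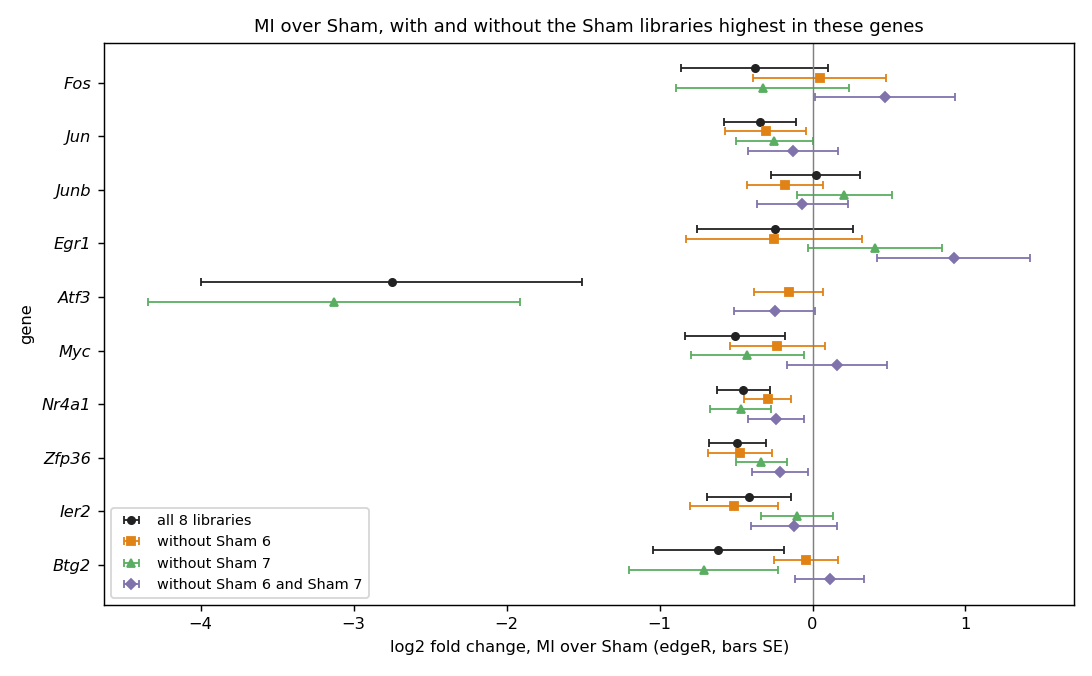
Log2 fold change of MI over Sham with its SE for each gene in the edgeR fit, with all 8 libraries (black circles), without Sham replicate 6 (orange squares), without Sham replicate 7 (green triangles) and without both (purple diamonds). Atf3 is at -2.75 with all libraries and -0.16 without Sham replicate 6. Fos, Egr1, Myc and Btg2 lie above 0 without both, which were the Sham libraries highest in these genes.

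The animal numbers fall in 2 ranges, the 250s (MI replicates 1 and 2, Sham replicate 5) and the 270s to 280s (the other 5 animals, among them Sham replicates 6 and 7). Whether the ranges are a batch is not stated. The difference of mean log2 CPM, MI minus Sham, was 0.16 for Zfp36 within the 250s and -0.71 within the 270s and 280s, and -0.31 and -0.56 for Nr4a1. For Atf3 it was 0.15 and -1.84, for Btg2 0.079 and -0.58, and for Myc 0.57 and -0.62. Within the 250s the Sham value is 1 animal. With the range as a term, Zfp36 was at -0.41 on the log2 scale and no longer under an unadjusted edgeR p of 0.05. Nr4a1 was at -0.48 and still under it, so that 1 of 10 members passed that limit in place of 2.

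Related genes of the same response were followed with lists chosen with earlier results of these data known. Of 41 tested other primary response genes, 31 lay below 0 in MI over Sham and 10 above, where the median log2 fold change was -0.095 and 51.3% of all genes lay below 0. At an unadjusted edgeR p under 0.05, 3 of 41 were lower and 0 higher, where 4.47% of all genes were lower. Tob2, a relative of Btg2 that also recruits deadenylases, was at -0.69 ± 0.28 (SE), and Ppp1r15a, a phosphatase subunit of the stress response, at -0.43 ± 0.17. None of the 41 passed in edgeR over all genes. Of 8 tested EGR, NR4A and KLF relatives, Nab2, a corepressor of EGR factors that is itself induced by EGR1, was at 7.28 to 9.11 CPM in MI, against 9.30 to 11.2 CPM in Sham, with no overlap and an edgeR adjusted p of 0.601. Of 6 tested AP-1 relatives, Mafk was at -0.53 ± 0.21 and Atf2 at 0.20 ± 0.087, and neither passed over all genes. Atf2 also had no overlap, with MI higher, at 28.6 to 32.5 CPM in MI against 25.7 to 28.5 CPM in Sham. Over all genes, 2.46% had MI entirely below Sham and 2.09% entirely above. Fosl1, Fosl2, Egr2, Egr3 and Ptgs2 had too few counts to be tested. Of 17 upstream kinases and factors, 1 (Crtc2, a coactivator of CREB, at -0.35 ± 0.15) had an unadjusted edgeR p under 0.05, and of 12 mRNA decay partners and 16 genes of the MYC network 0 did. These last 3 lists had median within-group SDs of 0.16, 0.15 and 0.17, against 0.50 for the members. Other lists spread more, at 0.40 for clock genes, 0.33 for other primary response genes and 0.32 for glucocorticoid-responsive genes. Some marker lists exceeded the members, at 0.72 for lymphocyte, 0.81 for mesothelium, 0.84 for adipocyte and 0.90 for cardiac muscle. A wide spread was thus not particular to the members.

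Of the other primary response genes, those that passed the 2-fold limit were not the same in Sham replicates 6 and 7. Above their median were 25 of 41 in Sham replicate 6 and 28 of 41 in Sham replicate 7, where 49.7% and 51.7% of all genes were. In Sham replicate 6, 4 of 41 were high, where 0.466% of all genes were. Hbegf, a growth factor shed from the membrane, was at 48.1 CPM there, against 6.15 to 22.1 CPM in MI and at most 13.2 CPM in the remaining Sham libraries. Socs3, a feedback inhibitor of cytokine signalling, Csrnp1, a nuclear early-response factor, and Errfi1, a feedback inhibitor of the EGF receptor, were 1.05, 1.02 and 1.01 above their medians on the log2 scale. Socs3 was also at 0.80 in MI replicate 2. In Sham replicate 7, 3 of 41 were high, where 1.44% of all genes were, namely Dusp1, a phosphatase that switches off MAP kinases and is induced by glucocorticoids, Tob2 and Arc, at 1.04, 1.07 and 1.04. Dusp1 was at 101 CPM in Sham replicate 7, against 37.8 to 57.8 CPM in MI and at most 55.5 CPM in the remaining Sham libraries. Hbegf was near its median in Sham replicate 7, at 0.089, and Tob2 near its median in Sham replicate 6, at -0.10. Other genes stood above their median in both, such as Sik1, at 0.83 in Sham replicate 6 and 0.71 in Sham replicate 7. Errfi1 was at 0.44 and Csrnp1 at 0.23 in Sham replicate 7.

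Sham replicate 7 was also the highest library for several, but not all, glucocorticoid-responsive genes, where it was highest for 14.5% of all genes. Cdkn1a was highest in MI replicate 1, at 53.0 CPM, and Pdk4 in MI replicate 4, at 1024 CPM. Fkbp5, a chaperone of the glucocorticoid receptor that its ligand induces, was at 10.9, 13.9, 11.6 and 12.7 CPM in MI, against 25.3, 19.1, 41.6 and 12.8 CPM in Sham. Per1, a clock gene that glucocorticoids induce, was at 10.7 CPM in Sham replicate 7, and at most 7.87 CPM in MI and 5.08 CPM in the remaining Sham libraries. Ddit4, which restrains mTOR complex signalling under stress, was at 9.57 CPM in Sham replicate 7, and at most 4.06 CPM in MI and 4.43 CPM in the remaining Sham libraries. In that library 3 of 16 tested genes of the list were high, where 1.44% of all genes were, and in Sham replicate 6, 0 of 16, where 0.466% were. Over the comparison, 13 of 16 lay below 0 in MI over Sham with a median of -0.22, where 51.3% of all genes lay below 0. Of these genes, 4 were lower at an unadjusted edgeR p under 0.05, where 4.47% of all genes were. In edgeR 0 passed over all genes, while DESeq2 called 2, both with MI entirely below Sham. Trim63, a ubiquitin ligase of muscle protein breakdown, was at 229 to 249 CPM in MI, against 319 to 359 CPM in Sham (adjusted p = 0.286 in edgeR and 1.18e-05 in DESeq2). Zbtb16, a transcriptional repressor that glucocorticoids induce, was at 23.3 to 43.5 CPM in MI, against 55.1 to 81.6 CPM in Sham (adjusted p = 0.518 in edgeR and 0.000161 in DESeq2). Of 12 tested clock genes, 2 (Nr1d1 and Per3) were at least 2-fold below their median in Sham replicate 7, where 0.504% of all genes were, and 0 were high. In MI replicate 2 and in Sham replicate 6, 1 of 12 each was high. Nr1d1, a repressor of the clock, was at 21.6 CPM in Sham replicate 7, against 48.3 to 93.3 CPM in MI and 44.5 to 109 CPM in the remaining Sham libraries, and Arntl, which Nr1d1 represses, at 86.9 CPM against at most 52.2 CPM in MI. In Sham replicate 6, Nr1d1 was at 44.5 CPM. Of the clock genes, 1 (Arntl, lower) had an unadjusted edgeR p under 0.05 in MI over Sham. Heat shock genes, which respond to protein damage, had 0 of 9 tested genes high in either library, and hypoxia-responsive genes 0 of 13. Over the comparison, 2 heat shock genes were higher and 0 lower at an unadjusted edgeR p under 0.05, and 1 hypoxia-responsive gene was higher and 1 lower.

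**Figure D4:**
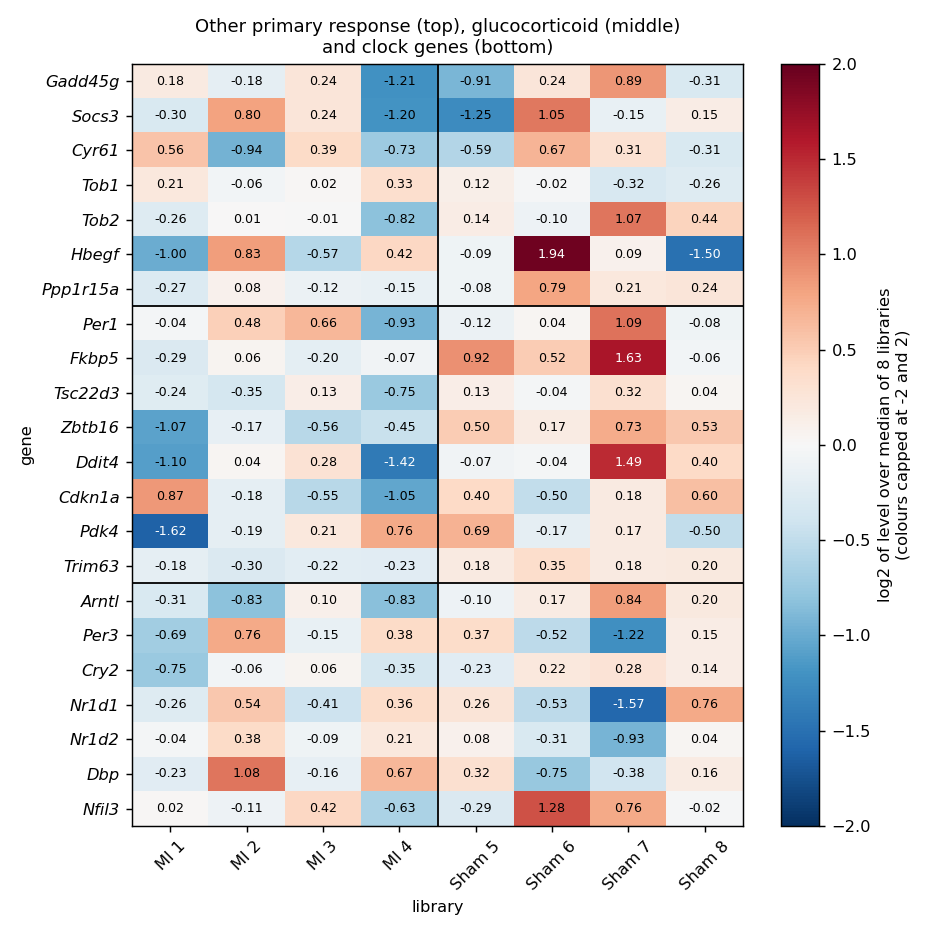
Deviation from the median of the 8 libraries (log2 CPM, prior count 2) of other primary response genes (top block), glucocorticoid-responsive genes (middle) and clock genes (bottom), chosen from those with the smallest p or the largest SD of their list. Hbegf is at 1.94 in Sham replicate 6, while Fkbp5, Ddit4 and Per1 are at 1.63, 1.49 and 1.09 in Sham replicate 7, where Nr1d1 is at -1.57.

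Markers of other cells moved with Sham replicate 7. The summed level of 8 macrophage markers was 94.4 to 163 CPM in MI and 103 to 241 CPM in Sham, and that of 9 lymphocyte markers 22.9 to 36.1 CPM in MI and 20.9 to 72.5 CPM in Sham, with the highest value of each in Sham replicate 7. That of 6 cardiac muscle markers was 54.0 to 151 CPM in MI and 17.7 to 103 CPM in Sham, the lowest in Sham replicate 7. In Sham replicate 6 the macrophage and lymphocyte sums were 142 and 25.5 CPM, both within the MI range. The sum of 7 neutrophil and mast cell markers was 34.2 to 57.5 CPM in MI, and 43.9 to 71.9 CPM in Sham, with 65.1 CPM in Sham replicate 6 and 71.9 CPM in Sham replicate 7. Some markers moved with the groups, counted at an unadjusted edgeR p under 0.05. By that count 386 of the 10522 genes tested were higher in MI and 470 lower. Red blood cell markers (7 genes) summed to 369 to 806 CPM in MI and 236 to 378 CPM in Sham, with 6 of 6 tested genes higher in MI. DESeq2 called 5 of these 6 at an adjusted p under 0.05, out of its 14 calls over all genes. Schwann cell markers (6 genes) summed to 127 to 167 CPM in MI and 97.1 to 135 CPM in Sham, with 2 of 5 tested genes higher. Fibroblast markers (7 genes) summed to 1974 to 3497 CPM in MI and 1852 to 2553 CPM in Sham, with 3 of 7 higher. Of the other lists, blood endothelium had 1 of 9 higher, smooth muscle and pericyte 1 of 7 higher, macrophage 1 of 8 lower, and the remaining 6 lists 0. For the 8 lists other than macrophage, lymphocyte, neutrophil and mast cell, and cardiac muscle, Sham replicates 6 and 7 were between 0.623 and 1.22 times the median of the others. No marker of the 12 lists was at 0 in every library. Their part in the levels of the immediate early genes was not tested. Sham replicate 7 was also the most deeply sequenced library, with 24967251 counts.

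The genes outside the set whose log2 CPM followed the mean of the members most closely over the 8 libraries, among genes with a mean of at least 1 CPM, were RGD1561157 (Pearson r = 0.97), Dalrd3 (0.96), Ptpn7 (0.95), Grb10 (0.92), Naa25 (0.92), Nfil3 (0.92), Mylk2 (0.92), Tceb3 (0.91), Relt (0.91) and Naa60 (0.91). These coefficients are a description of 8 points, and the members and these genes share the libraries. Nfil3, a leucine zipper repressor, was at 20.3, 18.6, 26.8 and 12.9 CPM in MI, against 16.4, 48.9, 34.1 and 19.8 CPM in Sham, so that its 3 highest libraries were those of Fos. Among the members themselves, Myc and Btg2 were closest to the mean of the other 9, with r of 0.91 and 0.80, and Junb was the 1 member that ran against it, with r of -0.44. Of 45 pairs of members, 37 had r above 0 with all libraries and 27 without Sham replicates 6 and 7. These libraries were chosen for their high levels of the members, so a lower number without them was partly built into the choice. The share over all pairs of genes was not computed. Junb had r above 0 with Egr1 and Ier2 alone in all libraries. Without Sham replicates 6 and 7, r of Junb was above 0 with Fos, Egr1, Myc, Ier2 and Btg2 and below 0 with the rest.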

How the data were processed

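RNA of snap-frozen diaphragms (TRI Reagent) went through SMARTer Ultra Low and KAPA Hyper library kits, per the labels' protocols. The values are the authors' deposited raw read counts, 1 row per gene symbol and 1 column per animal. The submitters' processing notes name bcl2fastq, STAR 2.5.0a, TopHat2, TopHat, Cufflinks and the rn5 build. No counting program, annotation or strand setting is named (not given in the sources used here), so reads of overlapping or antisense genes may be included. Spreadsheet dates replaced 25 symbols (0.109% of counts), which stayed in library sizes. Each column matched 1 labelled animal, and 0 columns were left over. Between pairs of libraries of a group, chi-square divided by its degrees of freedom was 12.1 to 44.3, so no pair was a repeat deposit within sampling noise.

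The whole table was fitted with edgeR 4.0.16 in R 4.3.3 (TMM, filterByExpr, robust quasi-likelihood F test, two-sided, Benjamini-Hochberg over 10522 genes, threshold 0.05). The SE of a log2 fold change was its size divided by the square root of F. DESeq2 1.42.0 and limma-voom (limma 3.58.1) were alternatives, with other scalings, filters, prior counts, folds, the animal number range and each library left out. On simulated data drawn from this comparison, with 200 of 10522 genes changed, edgeR made 11 false calls and found 79% of the 2-fold changes and 98% of the 3-fold changes. The simulation gave each gene the spread usual at its level. The members spread more, with a median within-group SD of 0.50 against 0.20 over all genes, so these shares do not carry over to them. All 10 members matched a RefSeq symbol and 6 a promoter window.

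The members, the 10 pathway lists and the 12 marker lists were chosen with earlier results of these data known. Named are all members, up to 4 genes of a list with the smallest p and up to 4 with the largest SD (not all are printed, and 1 gene is not reported here), and the 10 genes most correlated with the members. Other genes (Socs3, Csrnp1, Errfi1, Sik1, Dusp1, Arc, Fosl1, Fosl2, Egr2, Egr3, Ptgs2 and those of the closing section) were chosen after their values were seen. A floor of 3 counts corresponded to 0.116 to 0.369 CPM.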

Additional observations from a re-analysis of the deposited data

Results flagged for a closer look

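Atf3 in Sham replicate 6 was far from the other samples of its group. On the log2 CPM scale its gap to the nearest Sham library was 0.874 of the whole range of the 4 Sham values, above the limit of 0.829 for groups of 4. The value was 267 CPM. Chance marks about 1 in 20 groups, 20 groups (10 genes in MI and in Sham) were examined, and 1 was marked.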

How the results depend on the processing

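No paired analysis was possible because the labels number the animals of the 2 groups separately, from 1 to 4 and from 5 to 8. The number of genes called over the whole table was 0 in edgeR and 14 with DESeq2, and 0 to 1 with single libraries left out. The number of members called was 0 under every alternative run, though DESeq2 gave no adjusted p for Atf3 or Egr1. With a limit of 1.5-fold above the median, 5 members were high in Sham replicate 6, 5 in Sham replicate 7 and 2 in MI replicate 3, where 2.20%, 5.04% and 2.20% of all genes were. In MI replicate 3 the number high was 1 against the median of its own group, and 0 to 1 with single libraries left out of the median. The number of members among the 5% of genes with the largest SD was 1 to 4 with single libraries left out, and 0 without both Sham replicates 6 and 7. The sign of a log2 fold change turned for Fos (-0.74 to 0.046 with single libraries left out, 0.47 without both Sham replicates), Junb (-0.18 to 0.21, -0.067 without both, -0.0050 with limma-voom), Egr1 (-0.60 to 0.41, 0.92 without both, 0.080 with a term for the range of animal numbers), Myc (0.16 without both) and Btg2 (0.11 without both). Values without both come from leaving out the Sham libraries chosen for their high levels. For Atf3 limma-voom gave -1.30, which averages log values, against -2.75 in edgeR. Counting error was largest for Egr1 and Junb, with as few as 8 and 25 counts in a library.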

Other observations

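The genes furthest above their median in Sham replicate 6, among those with a mean of at least 1 CPM, were looked up after the members had been seen. Atf3 was followed by Cntnap4, at 11.1 CPM, and by Tnfrsf12a, the receptor for the cytokine TWEAK that injured muscle is known to raise, at 94.7 CPM, against 9.23 to 34.0 CPM in MI and 15.4 to 27.9 CPM in the other Sham libraries. Myh4 came next, at 2083 CPM, but ran from 11.4 to 3700 CPM in MI and from 138 to 1435 CPM in the other Sham libraries. Mybph, a myosin-binding protein, was at 105 CPM, against 4.38 to 64.7 CPM in MI and 10.5 to 56.0 CPM in the other Sham libraries. Hbegf was at 48.1 CPM, and Btg2 held rank 9 by deviation among 10155 such genes. Csrp3, a Z-disc protein tied to mechanical load, was at 61.3 CPM in that library but also at up to 48.5 CPM in MI and 55.9 CPM in another Sham library. In Sham replicate 7 the genes furthest above their median were Cxcl13, a chemokine that attracts B cells, at 80.9 CPM, against 0.245 to 3.13 CPM in MI and at most 3.80 CPM in the other Sham libraries, and Il13ra2, a decoy receptor for interleukin 13, at 11.7 CPM, against at most 1.07 CPM in MI. Siglec1, a macrophage lectin, and Cd69, an early activation marker of lymphocytes, were at 6.98 and 3.16 CPM in Sham replicate 7, against at most 2.65 and 1.86 CPM in MI. None of the members was among the 12 highest genes by this measure in Sham replicate 7, where Egr1 had rank 69 of all 10522 genes tested.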
